A study of Homo sapiens with 6 samples.

Results

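The genes of cholesterol and fatty acid synthesis were followed in HepG2, a human hepatoblastoma cell line widely used as a model of the hepatocyte. The gene set held 32 genes, listed by name with earlier results of these data known: 17 enzymes of sterol synthesis, 6 regulators of the SREBP system and 9 enzymes of fatty acid synthesis. A probe set with the gene as its only symbol was found for 30 of them, FDFT1 and FADS1 were not analysed here, and 28 had a mean signal above the floor and were tested among 11921 genes in all. Cells carried either an HNF4A siRNA (siHNF4A) or a control siRNA (siControl), and had received TGF-beta at 3 ng/ml for 0, 1.5 or 24 h, where 0 h means no TGF-beta. Each of the 6 combinations was measured on 1 Affymetrix array from total RNA. All groups share the line, the medium and a transfection. There was 1 siRNA label per arm, and no array of cells kept without TGF-beta for 1.5 or 24 h, so time after transfection and TGF-beta cannot be told apart. The HNF4A transcript itself was not analysed here.

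Cholesterol is built from acetyl-CoA through mevalonate, isoprenoid diphosphates, squalene and lanosterol, and the hepatocyte is one of the main sites of this synthesis. Fatty acids come from the same acetyl-CoA, are assembled by acetyl-CoA carboxylase and fatty acid synthase, and are then lengthened and desaturated. Both routes are under the SREBP transcription factors, which SCAP escorts to the Golgi when sterols are scarce and which the INSIG proteins hold in the endoplasmic reticulum when sterols are plentiful. HNF4A is a nuclear receptor that maintains hepatocyte gene expression, including much of lipid metabolism. TGF-beta is a cytokine that acts through Smad proteins and slows the growth of hepatic cells.

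Promoter windows are shown for the 5 genes that differed between siRNAs, since the question of a shared proximal element arises first for them. Each window is the RefSeq sequence of GRCh38.p14 from 250 bases before to 50 bases after an annotated transcript start, read 5′ to 3′ along the gene. HMGCS1 lies on the minus strand at chr5:43313363-43313662, ELOVL6 on the minus strand at chr4:110198566-110198865, INSIG2 on the plus strand at chr2:118088221-118088520, SCD on the plus strand at chr10:100346983-100347282 and EBP on the plus strand at chrX:48521558-48521857. Capitals mark the NF-Y type motif CCAAT or its reverse complement ATTGG.
HMGCS1: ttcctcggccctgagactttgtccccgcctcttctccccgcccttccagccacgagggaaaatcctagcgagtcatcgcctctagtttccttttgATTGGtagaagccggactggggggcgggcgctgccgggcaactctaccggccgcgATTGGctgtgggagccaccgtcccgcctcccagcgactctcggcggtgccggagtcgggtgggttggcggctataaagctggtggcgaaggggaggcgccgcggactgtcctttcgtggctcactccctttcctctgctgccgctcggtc
ELOVL6: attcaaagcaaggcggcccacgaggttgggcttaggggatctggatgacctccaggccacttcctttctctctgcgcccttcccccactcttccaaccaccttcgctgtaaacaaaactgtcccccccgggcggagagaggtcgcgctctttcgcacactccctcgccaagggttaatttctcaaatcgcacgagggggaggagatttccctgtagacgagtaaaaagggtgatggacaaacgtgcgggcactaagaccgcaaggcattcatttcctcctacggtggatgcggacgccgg
INSIG2: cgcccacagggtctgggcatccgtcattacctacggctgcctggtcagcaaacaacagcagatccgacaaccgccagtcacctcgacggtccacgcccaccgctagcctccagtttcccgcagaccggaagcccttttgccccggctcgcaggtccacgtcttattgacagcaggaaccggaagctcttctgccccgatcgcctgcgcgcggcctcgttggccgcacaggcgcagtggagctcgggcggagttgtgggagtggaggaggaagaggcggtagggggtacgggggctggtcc
SCD: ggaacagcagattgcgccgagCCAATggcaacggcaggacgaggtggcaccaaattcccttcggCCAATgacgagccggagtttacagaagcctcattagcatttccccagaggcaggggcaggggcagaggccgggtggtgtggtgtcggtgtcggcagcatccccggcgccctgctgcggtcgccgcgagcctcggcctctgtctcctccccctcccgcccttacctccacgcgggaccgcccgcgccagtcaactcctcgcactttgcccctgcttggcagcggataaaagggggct
EBP: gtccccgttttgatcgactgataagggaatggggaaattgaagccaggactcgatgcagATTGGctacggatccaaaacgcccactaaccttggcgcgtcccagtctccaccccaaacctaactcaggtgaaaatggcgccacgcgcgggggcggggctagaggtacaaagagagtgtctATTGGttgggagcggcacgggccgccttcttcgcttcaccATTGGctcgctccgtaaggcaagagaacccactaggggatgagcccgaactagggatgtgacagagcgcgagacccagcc
The HMGCS1 window holds this motif at positions -155 and -100 from the start, the SCD window at -229 and -186, and the EBP window at -191, -70 and -30. The ELOVL6 and INSIG2 windows hold none. Across 35116 RefSeq windows of this length, 34.6% hold CCAAT on either strand. Among the gene set, 28 genes had a window that was used, with 38 start sites between them, some overlapping, and 25 of the 38 windows in 21 genes hold it. These are not the 28 tested genes. No window was used for FDFT1, SQLE, FASN and ACAT2, while INSIG1, which was not tested, is included. The sterol regulatory element type motif TCACNCCAC, searched on both strands, is in 1.13% of all windows and in 1 window of the set, that of SREBF2 at -133. An HNF4 type motif, CAAAGTCCA, is in 0.384% of all windows and in 1 window of the set, which belongs to a second start of HMGCS1, at -48. None of the motif matches overlapped one of another kind. A match describes these letters and is not a measured binding site.

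The values are MAS5 signals, intensities scaled by the authors to the same trimmed mean of 100 on every array, with array medians between 12.4 and 13.3. Signals under 12.9, the median of all signals, were set to this floor before log2 was taken. Depth has no counterpart on arrays, and the number of arrays limits the precision. The siControl array at 0 h stood apart in a ribosomal RNA control probe set, with 8599.7 against 69.8 to 736.5 on the other arrays. Its GAPDH 3′ to 5′ signal ratio was 0.888, against 0.947 to 0.977 on the others. Its ACTB 3′ to 5′ ratio of 1.28 did not stand apart, with 1.17 to 1.28 on the others. Fitted results that this array alters are given with and without it. Differences taken from this array alone have no value without it. All 7 hepatocyte markers were high, with signals of 616.5 to 11339.1 and a summed level of 50829.9 to 55135.2 in siHNF4A cells and 48372.3 to 52086.4 in siControl cells. One of them, FGB, a fibrinogen chain, rose by 0.74 ± 0.11 with the siRNA (limma adjusted p = 0.00089) and fell by 0.65 ± 0.14 at 24 h (adjusted p = 0.00509). Of 6 markers of blood, endothelial or fibroblast cells, PTPRC, CDH5, COL3A1, DCN and LUM had means at or below the floor. The remaining one, PECAM1, measured 98.0 and 127.2 at 24 h in siHNF4A and siControl cells, against 65.7 and 47.0 at 0 h, and rose by 1.01 ± 0.27 (limma adjusted p = 0.0221). The summed level of the 6 was 86.4 to 130.3 in siHNF4A cells and 74.2 to 162.5 in siControl cells, and its part in the results below was not tested.

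Of the 32 genes, 28 had a mean signal above the floor, which was the condition for being tested. These 28 also exceeded the floor on each of the 6 arrays. The lowest signal among them was 26.7, for MVD at 24 h in siHNF4A cells. INSIG1, the sterol-inducible member of the INSIG pair, was at or below the floor on every array, with 8.2, 10.6 and 2.0 at 0, 1.5 and 24 h in siHNF4A cells and 4.5, 7.2 and 11.9 in siControl cells. Its 3 probe sets were all this dim. ME1, the cytosolic malic enzyme that supplies NADPH, measured 2.3, 2.3 and 3.0 in siHNF4A cells and 7.1, 2.5 and 10.7 in siControl cells, and all 3 of its probe sets were dim as well. Neither gene was tested.

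The siRNA comparison asks which genes of the set differed between the HNF4A siRNA and the control siRNA, averaged over the 3 times. HMGCS1, ELOVL6, INSIG2 and SCD rose with the HNF4A siRNA and EBP fell, while 23 of the 28 tested genes did not pass the threshold. The rise covered 14.3% of the tested genes of the set, against 3.9% of all genes tested, and the fall 3.57%, against 4.16% of all genes. At an unadjusted p under 0.05 there were 10 of the 28 genes of the set and 2552 of all 11921. Since the set was chosen with results known, these shares are a description. The median log2 difference of the set was -0.01, and that of all genes -0.04. The test was limma with a Benjamini-Hochberg adjustment over all 11921 genes at 0.05. With no replicates, its error pools the disagreement of a gene's siRNA difference between times with the spread of genes of similar signal. The latter had the larger weight, with 12.6 prior against 2 residual degrees of freedom. None of the 5 calls passed without the intensity trend in limma, where 0.134% of all genes rose and 0.243% fell. Without the filter on dim genes none of them passed either, and 0% of all genes were called. ELOVL6 alone passed when all probe sets of a gene were averaged, where 0.925% of all genes rose and 1.09% fell. In whole-culture RNA, fewer cells of a kind and less RNA per cell cannot be told apart.

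**Figure D1:**
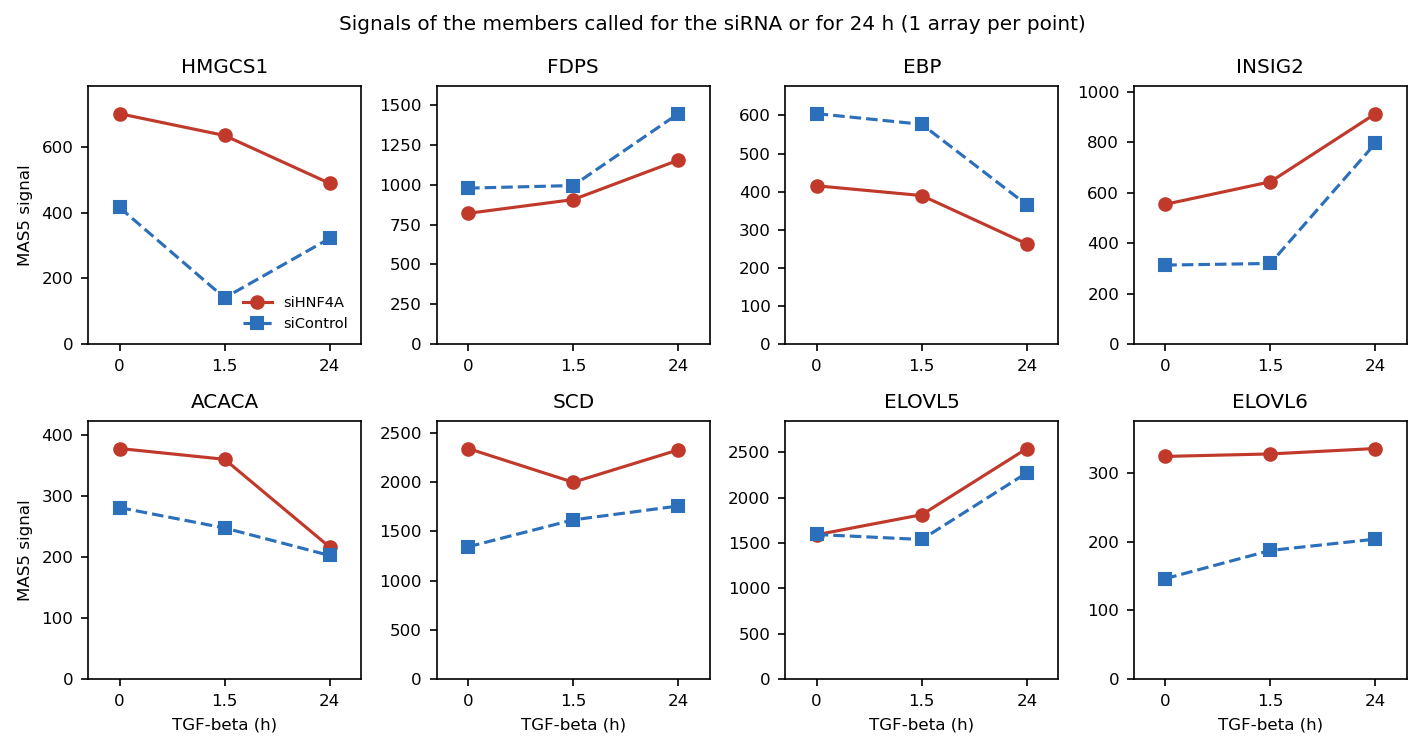
MAS5 signal (vertical axis, from 0) of the 8 genes called for the siRNA or for 24 h, against hours of TGF-beta (horizontal axis, evenly spaced), with red circles for siHNF4A and blue squares for siControl, 1 array per point. ELOVL6 lay at 323.9 to 335.4 in siHNF4A cells and at 146.1 to 203.6 in siControl cells, and INSIG2 was highest at 24 h in both.

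HMGCS1 makes HMG-CoA from acetyl-CoA and acetoacetyl-CoA, at the entry to the mevalonate pathway. Its signals were 700.4, 634.1 and 488.7 at 0, 1.5 and 24 h in siHNF4A cells, against 415.6, 140.9 and 321.6 in siControl cells. All 3 siHNF4A arrays were above all 3 siControl arrays. Such a separation is a description here and below, since its share among all genes was not counted. The widest gap was at 1.5 h, where the siControl signal was lowest. The other HMGCS1 probe set, given below, was not low there. The log2 difference was 1.18 ± 0.22 (limma SE), 2.26-fold, with an adjusted p of 0.0041. Without the 1.5 h arrays it was 0.68, and it passed the threshold under every omission of an array or a pair of arrays. Leaving out 1 array of a time gave the same difference as leaving out its pair, so these omissions are not separate checks.

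No other mevalonate enzyme passed the threshold. MVD, the mevalonate diphosphate decarboxylase, had 44.2, 49.0 and 26.7 in siHNF4A cells and 79.8, 59.7 and 46.3 in siControl cells at 0, 1.5 and 24 h. It was lower in siHNF4A cells at each time but had overlapping groups, and its difference of -0.64 ± 0.23 did not pass (limma adjusted p = 0.102). IDI1, which isomerises isopentenyl diphosphate, differed by 0.26 ± 0.10 (adjusted p = 0.131), and FDPS, which makes farnesyl diphosphate, by -0.24 ± 0.10 (adjusted p = 0.176). ACAT2, the thiolase that makes acetoacetyl-CoA, and the kinases MVK and PMVK had differences between -0.18 and -0.01. Thus 1 of the 7 genes from ACAT2 to FDPS rose and none fell, where 3.9% of all genes rose and 4.16% fell.

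From squalene to cholesterol 6 of 9 differences were below 0, where the median of all genes was also below 0, at -0.04. EBP, the isomerase that shifts the ring double bond of zymosterol-type sterols, had 415.6, 390.0 and 263.2 at 0, 1.5 and 24 h in siHNF4A cells, against 604.8, 576.9 and 365.5 in siControl cells. It was lower at each of the 3 times by a similar amount, -0.54, -0.56 and -0.47 on the log2 scale. The fitted difference was -0.53 ± 0.12, 1.44-fold lower, with a limma adjusted p of 0.0124. EBP did not pass without the 1.5 h arrays (-0.51) or without the 24 h arrays (-0.55), either singly or as a pair. TM7SF2, a sterol reductase that acts after lanosterol, had 141.6, 151.7 and 157.3 in siHNF4A cells and 191.1, 241.9 and 190.1 in siControl cells. These groups did not overlap, and the difference of -0.46 ± 0.16 did not pass (adjusted p = 0.0884). LSS, which closes the rings to lanosterol, had 471.2, 354.8 and 260.3 in siHNF4A cells and 418.9, 481.5 and 387.3 in siControl cells. It was higher in siHNF4A cells at 0 h and lower at the other times. Of the 9 tested enzymes from SQLE to DHCR7, 1 fell, none rose and the median difference was -0.23, where 4.16% of all genes fell and 3.9% rose. SQLE, MSMO1, SC5D and DHCR7, which epoxidise squalene, remove a sterol methyl group, desaturate the ring and carry out a final reduction, lay between -0.11 and 0.09. NSDHL and HSD17B7, which act in turn on the sterol ring after the methyl oxidase, differed by -0.23 ± 0.15 and -0.30 ± 0.14.

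Among the regulators, 1 of 5 tested rose, where 3.9% of all genes rose. INSIG2 encodes the INSIG protein whose transcript is less tied to SREBP activity, and it measured 554.1, 643.3 and 913.1 at 0, 1.5 and 24 h in siHNF4A cells, against 313.5, 319.9 and 796.1 in siControl cells. The gap was 0.82 and 1.01 on the log2 scale at 0 and 1.5 h and 0.20 at 24 h, and the groups overlapped through the siControl array at 24 h. INSIG2 rose by 0.68 ± 0.14, 1.60-fold (limma adjusted p = 0.00871), and did not pass without the 1.5 h arrays (0.51). SREBF1, which encodes the SREBP tied most to fatty acid synthesis, had 87.7, 80.6 and 75.9 in siHNF4A cells and 64.5, 85.7 and 80.9 in siControl cells. SREBF2, whose product acts mainly on sterol genes, had 77.3, 59.6 and 68.1 in siHNF4A cells and 72.9, 94.6 and 68.0 in siControl cells. Both overlapped between siRNAs, with differences of 0.09 ± 0.20 and -0.19 ± 0.21. SCAP differed by -0.32 ± 0.17 and STARD4, a cytosolic sterol carrier, by less than 0.01.

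In fatty acid synthesis a desaturase and an elongase passed the threshold. ELOVL6, which elongates saturated and monounsaturated chains, had 323.9, 327.5 and 335.4 at 0, 1.5 and 24 h in siHNF4A cells, against 146.1, 187.1 and 203.6 in siControl cells. SCD, the stearoyl-CoA desaturase that makes oleate, had 2342.6, 1999.5 and 2328.7 in siHNF4A cells, against 1343.8, 1617.6 and 1758.4 in siControl cells. For both genes every siHNF4A array was above every siControl array, which is a description and not a test. ELOVL6 rose by 0.89 ± 0.14, 1.86-fold (limma adjusted p = 0.00143), and passed under every omission of an array or a pair. SCD rose by 0.50 ± 0.10, 1.42-fold (adjusted p = 0.00746), but did not pass without the 0 h arrays (0.36), the siControl array that stood apart included, or without the 24 h arrays (0.55).

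The enzymes that supply and assemble the chain did not pass. FASN, the fatty acid synthase, had 535.8, 285.3 and 237.4 at 0, 1.5 and 24 h in siHNF4A cells and 302.3, 442.4 and 260.7 in siControl cells. It was higher in siHNF4A cells at 0 h only, and its difference was 0.02 ± 0.20. ACACA, the acetyl-CoA carboxylase, was higher in siHNF4A cells at each time, with 377.8, 360.1 and 216.3 against 281.0, 247.6 and 202.5 in siControl cells. Its difference of 0.35 ± 0.14 missed the threshold (adjusted p = 0.151), as did ACLY, the enzyme that yields cytosolic acetyl-CoA, at 0.20 ± 0.10. FADS2, a desaturase of polyunsaturated fatty acids, had 96.6, 32.6 and 86.5 in siHNF4A cells and 80.8, 102.8 and 87.2 in siControl cells. One array, siHNF4A at 1.5 h, was low, and the difference of -0.47 ± 0.29 did not pass (adjusted p = 0.394). FADS2 was called lower, at -0.83, when the siHNF4A or the siControl array at 0 h was left out. Of the 7 fatty acid genes tested, 2 rose, none fell and the median difference was 0.20, where 3.9% of all genes rose and 4.16% fell.

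The remaining genes are given by their range over the 3 times. ACAT2 spanned 1222.9 to 1439.2 in siHNF4A cells and 1328.4 to 1500.5 in siControl cells, and MSMO1 1707.5 to 1977.2 in siHNF4A cells and 1624.3 to 1825.9 in siControl cells. SC5D spanned 955.5 to 1091.0 in siHNF4A cells and 1081.5 to 1133.5 in siControl cells, and DHCR7 456.9 to 543.0 in siHNF4A cells and 457.9 to 509.4 in siControl cells. In these 4 genes the ranges of both siRNAs overlapped and each stayed narrow. IDI1 spanned 1097.4 to 1252.5 in siHNF4A cells and 943.1 to 969.7 in siControl cells, with no overlap, and was not called. SCAP spanned 155.3 to 276.9 in siHNF4A cells and 197.5 to 333.4 in siControl cells, and ACLY 2271.8 to 3024.5 in siHNF4A cells and 1981.3 to 2433.7 in siControl cells. HSD17B7 spanned 203.2 to 258.7 in siHNF4A cells and 278.9 to 301.9 in siControl cells, with no overlap, and was not called. The share of all genes with ranges apart was not counted. The 3 arrays of an siRNA are 3 times and not replicates, so ranges apart are a description only. The ranges of MVK, PMVK, SQLE, NSDHL and STARD4 overlapped between siRNAs.

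**Figure D2:**
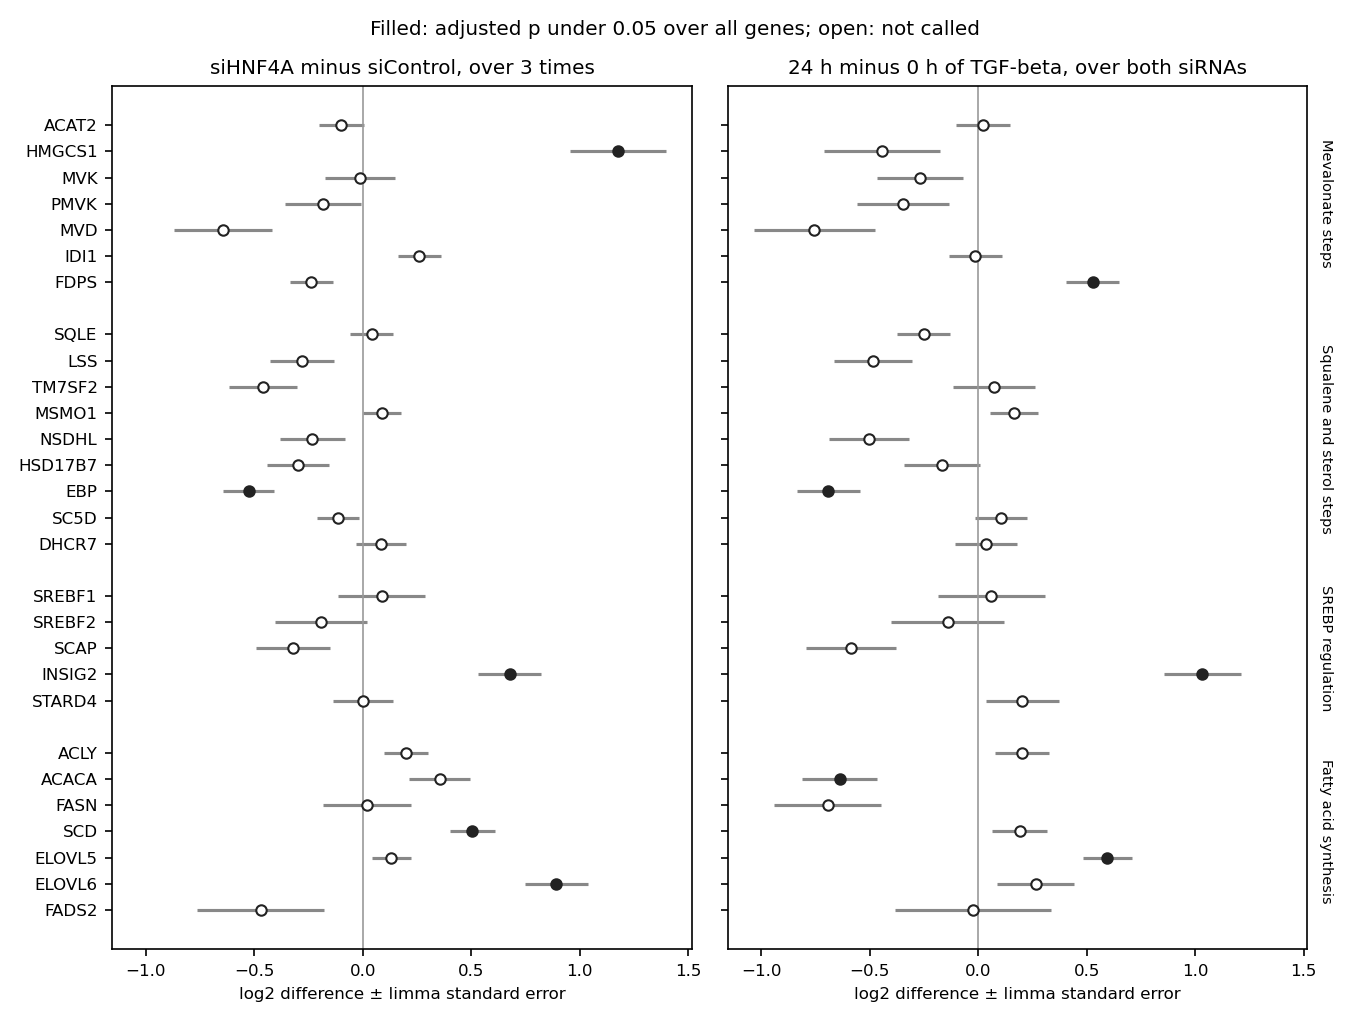
Log2 difference of signal with its limma standard error (horizontal axes) for the 28 tested genes by role, siHNF4A minus siControl over 3 times on the left and 24 h minus 0 h of TGF-beta over both siRNAs on the right. Filled points passed an adjusted p of 0.05 over all genes: HMGCS1 at 1.18 is the highest on the left and INSIG2 at 1.03 on the right, and EBP is filled below 0 in both.

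At 24 h of TGF-beta the comparison asks which genes of the set had moved in cells of either siRNA. INSIG2, ELOVL5 and FDPS rose, EBP and ACACA fell, and 23 did not pass. The share that rose was 10.7%, against 7.22% of all genes, and the share that fell 7.14%, against 7.82% of all genes, so the shares were near the background. The median of the set was -0.02 and that of all genes -0.03, with 10 of the 28 and 3313 of all 11921 at an unadjusted p under 0.05. Without the siControl array at 0 h, 3 rose and 4 fell: FASN, LSS and SCAP were called lower beside EBP, while ACACA was not called. No gene of the set passed at 24 h without the intensity trend or without the filter on dim genes, and only INSIG2 and FDPS passed when probe sets were averaged.

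INSIG2 had the highest 24 h difference of the set. It measured 913.1 in siHNF4A and 796.1 in siControl cells at 24 h, against 554.1 and 313.5 at 0 h. Both 24 h arrays exceeded both 0 h arrays, and the response was 0.72 on the log2 scale in siHNF4A cells and 1.34 in siControl cells. INSIG2 rose by 1.03 ± 0.18, 2.05-fold (limma adjusted p = 0.00117), and did not pass without the siControl array at 24 h (0.67).

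ELOVL5, which elongates polyunsaturated fatty acids, had 2544.0 in siHNF4A and 2276.1 in siControl cells at 24 h, against 1592.8 and 1595.4 at 0 h. At 1.5 h it had 1813.6 in siHNF4A cells and 1540.1 in siControl cells, both under the 24 h signals. The rise was 0.59 ± 0.11, 1.51-fold (limma adjusted p = 0.00249). FDPS had 820.3, 906.4 and 1153.5 at 0, 1.5 and 24 h in siHNF4A cells, against 978.3, 994.5 and 1444.8 in siControl cells. It was lower in siHNF4A cells at each time, while the 24 h response was 0.49 and 0.56 in siHNF4A and siControl cells. FDPS rose by 0.53 ± 0.12, 1.44-fold (limma adjusted p = 0.00869). ELOVL5 did not pass without the siControl array at 24 h (0.62), the siHNF4A array at 0 h (0.49) or the siHNF4A array at 24 h (0.57). FDPS was also not called under these 3 omissions, at 0.46, 0.51 and 0.59.

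EBP was the only gene of the set called lower in both comparisons. It had 263.2 in siHNF4A and 365.5 in siControl cells at 24 h, against 415.6 and 604.8 at 0 h. The 24 h arrays lay below the 0 h arrays, and the responses of -0.66 and -0.73 in siHNF4A and siControl cells were alike in size. It fell by 0.69 ± 0.15 on the log2 scale, 1.62-fold lower (limma adjusted p = 0.00487), and did not pass without the siHNF4A (-0.73) or the siControl (-0.65) array at 24 h. ACACA had 216.3 in siHNF4A and 202.5 in siControl cells at 24 h, against 377.8 and 281.0 at 0 h. ACACA fell by 0.64 ± 0.17, 1.56-fold lower (limma adjusted p = 0.0213), and its value without the siControl array at 0 h was -0.69, not called. It was also not called without the siControl array at 24 h (-0.83) or without the siHNF4A array at 0 h (-0.58) or at 24 h (-0.44).

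Several enzymes were lower at 24 h without passing. MVD had 26.7 in siHNF4A and 46.3 in siControl cells at 24 h, against 44.2 and 79.8 at 0 h, a difference of -0.76 ± 0.28 (limma adjusted p = 0.0843). FASN had 237.4 and 260.7 at 24 h in siHNF4A and siControl cells, against 535.8 and 302.3 at 0 h. Its difference of -0.69 ± 0.25 had an adjusted p of 0.0755, with most of it in siHNF4A cells at -1.17 and a response of -0.21 in siControl cells. Without the siControl array at 0 h FASN was called at -1.30, LSS at -0.82 and SCAP at -0.94. Without either or both arrays at 1.5 h FASN was called at -0.69, SCAP at -0.59 and HMGCS1 at -0.44, and HMGCS1 also without the siHNF4A array at 0 h (-0.76). NSDHL, a decarboxylating sterol dehydrogenase, had -0.50 ± 0.18 (adjusted p = 0.0812), SCAP -0.59 ± 0.21 (adjusted p = 0.0742) and LSS -0.48 ± 0.18 (adjusted p = 0.0874). Differences between -0.01 and 0.10 were found for ACAT2, IDI1, TM7SF2, SC5D, DHCR7 and SREBF1, and SCD and ELOVL6, which were high with the siRNA, differed by 0.19 ± 0.13 and 0.26 ± 0.18.

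At 1.5 h no gene of the set passed in limma, where 0.0839% of all genes rose and 0.0168% fell. The only one with an unadjusted p under 0.05 was HMGCS1, against 364 such genes among all tested. Its difference of -0.85 ± 0.27 (limma adjusted p = 1) was -0.14 in siHNF4A cells and -1.56 in siControl cells. It was called lower without the siHNF4A array at 0 h (-1.17) or at 1.5 h (-1.60). FADS2 and FASN came next at -0.61 ± 0.36 and -0.18 ± 0.25, and the highest values were 0.22 for TM7SF2, 0.19 for ELOVL6 and 0.14 for SREBF1. The 1.5 h and 24 h differences share the 0 h arrays and are not independent of each other.

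Whether the siRNA difference at 24 h departed from its mean at 0 and 1.5 h was tested by a further term. It was called by limma for 0 of the 28 genes and for 0% of all genes, with 1 residual degree of freedom. At an unadjusted p under 0.05 there was 1 gene of the set, INSIG2, and 543 among all. INSIG2 had a smaller siRNA difference at 24 h, by -0.72 ± 0.25 (limma adjusted p = 0.999). By value HMGCS1 was lowest at -0.86 ± 0.48, INSIG2 next and LSS the third lowest at -0.44 ± 0.32, and the highest were FADS2 at 0.69 ± 0.67, SREBF2 at 0.29 ± 0.46 and TM7SF2 at 0.28 ± 0.34.

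On single arrays a difference of 2-fold was reached by few genes of the set, and these values have no test. Those of ELOVL6 at 0 h, of INSIG2 from 0 to 24 h and of HMGCS1 from 0 to 1.5 h in siControl cells use the siControl array at 0 h that stood apart. Between siRNAs, 1 gene was higher in siHNF4A at 0 h (ELOVL6, 2.22-fold), where 3.09% of all genes differed by 2-fold in either direction. At 1.5 h HMGCS1 was 4.50-fold and INSIG2 2.01-fold higher in siHNF4A cells, and FADS2 was 3.15-fold lower, where 4.81% of all genes did so. At 24 h none reached it, against 5.27% of all genes. From 0 to 24 h, FASN was 2.26-fold lower at 24 h in siHNF4A cells (9.08% of all genes) and INSIG2 2.54-fold higher in siControl cells (5.7% of all genes). From 0 to 1.5 h, FADS2 was 2.96-fold lower at 1.5 h in siHNF4A cells (2% of all genes) and HMGCS1 2.95-fold lower in siControl cells (1.66% of all genes). Both HMGCS1 values use 1 low signal of its brighter probe set, 140.9 at 1.5 h in siControl cells. The other HMGCS1 probe set had 181.9 on that array, against 169.8 at 0 h in siControl cells and 321.7 at 1.5 h in siHNF4A cells.

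**Figure D3:**
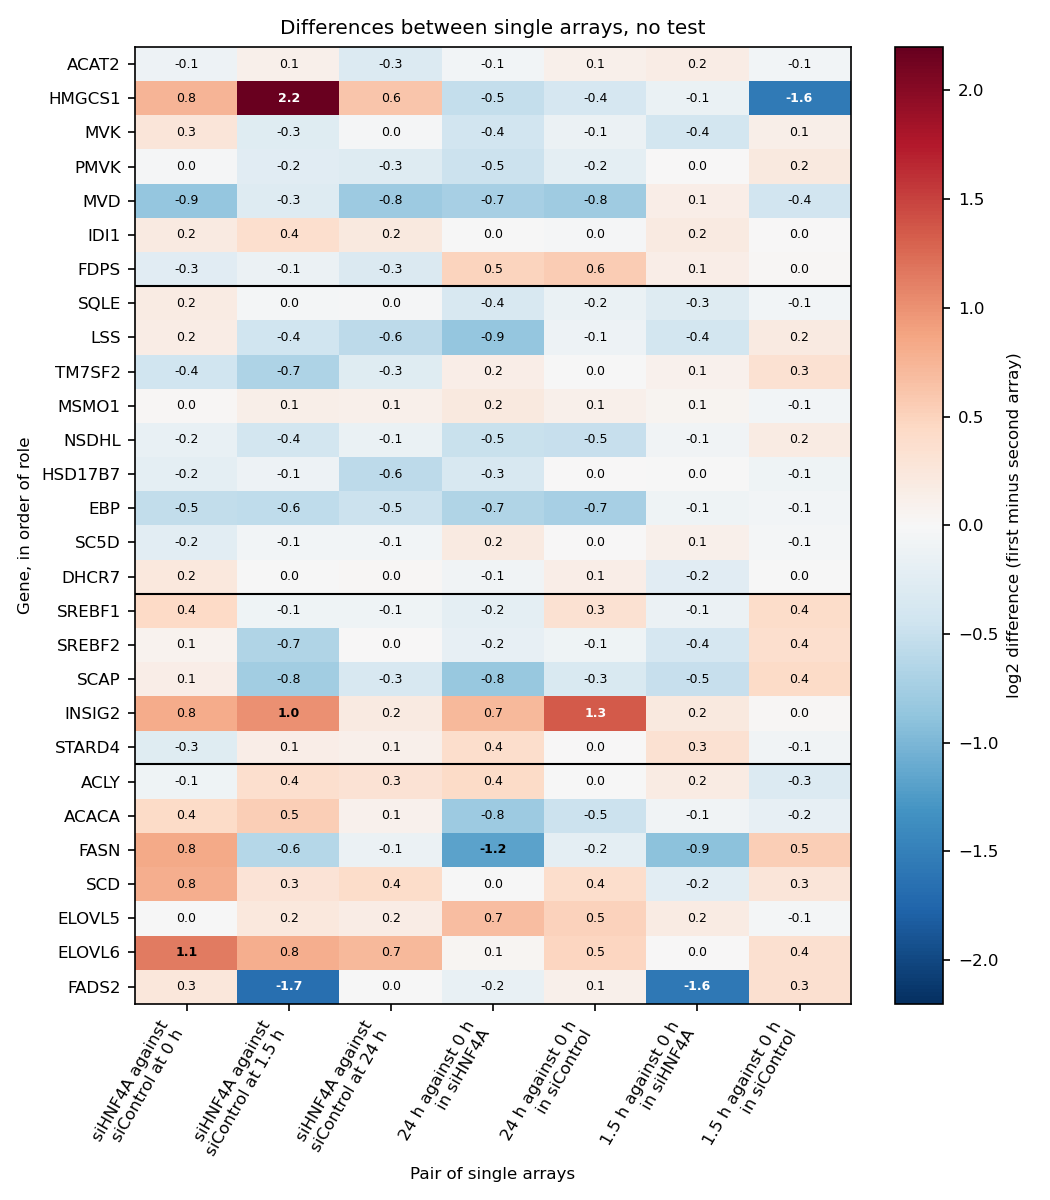
Log2 difference between pairs of single arrays (columns, named below; colour from blue, lower, to red, higher) for the 28 tested genes by role (rows), with bold numbers for 2-fold and over. HMGCS1 at 1.5 h between siRNAs is the deepest red at 2.17, and the FADS2 and HMGCS1 cells of the 1.5 h columns are the deepest blue.

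The used probe set was the brightest of each gene, and 20 genes of the set had others. For HMGCS1 the other probe set gave 375.4, 321.7 and 249.9 at 0, 1.5 and 24 h in siHNF4A cells, against 169.8, 181.9 and 205.1 in siControl cells. It was higher in siHNF4A cells at each time, by 0.75 on average, but was not low at 1.5 h in siControl cells, unlike the used one. ELOVL6 had differences of 0.82 and 0.37 in its other probe sets, the second of them dim, with a mean signal of 14.2. The other SCD probe sets gave 0.23, 0.11 and 0.12, less than the 0.50 of the used one.

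For EBP the siRNA difference was -0.30 and -0.62 in other probe sets and 0.51 in a dim one with a mean signal of 19.2. At 24 h these probe sets gave -0.34, -0.21 and 0.35. ACACA at 24 h had -0.76 in its other probe set, which was dim, with a mean signal of 24.5 and a signal of 10.9 in siHNF4A cells at 24 h, and ELOVL5 had -0.35, 0.24 and 0.23 in others that were all dim, with mean signals of 24.3 and below. INSIG2 and FDPS had a single probe set each, so no second measurement bears on them. Probe sets whose names end in _x_at or _s_at can match several transcripts, and those used for HMGCS1, EBP and SCD end in _s_at and those for IDI1 and HSD17B7 in _x_at. Without such probe sets EBP was not called for the siRNA (-0.30) or at 24 h (-0.34), and SCD could not be tested, since all its probe sets carry such names.

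**Figure D4:**
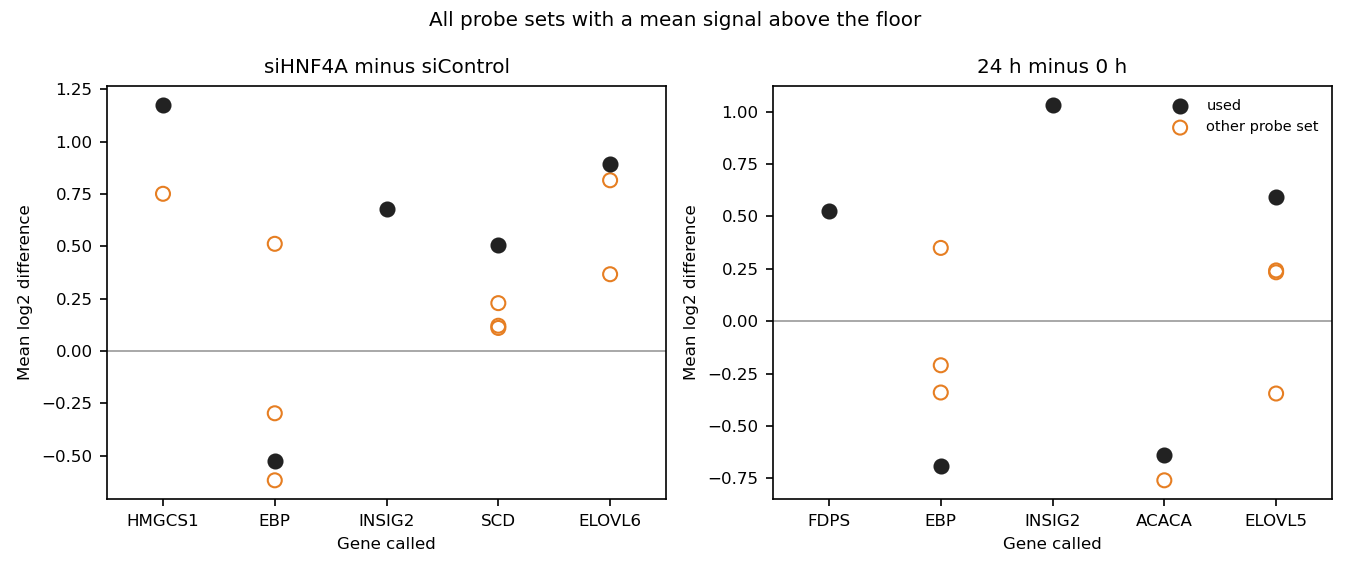
Mean log2 difference (vertical axes) of each probe set with a mean signal above the floor, for the genes called for the siRNA (left, siHNF4A minus siControl) and at 24 h (right, 24 h minus 0 h); filled points are the probe sets used and open circles the others. The EBP probe set at 0.51 on the left and 0.35 on the right is the dim one, and the 3 open SCD points lie below the filled one at 0.50.

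Of 59 other genes of these pathways, 49 were tested, in lists chosen with earlier results known. With the siRNA none of the 49 rose and 8 fell, where 3.9% of all genes rose and 4.16% fell. In the SREBP machinery 2 of 10 fell. ERLIN1, an endoplasmic reticulum protein that takes part in the degradation of regulated membrane proteins, had 392.2, 409.4 and 248.4 at 0, 1.5 and 24 h in siHNF4A cells, against 1058.2, 807.8 and 787.1 in siControl cells. All its siHNF4A arrays were below all siControl arrays, and it fell by 1.36 ± 0.13 on the log2 scale (limma adjusted p = 2.37e-05). RNF139, a ubiquitin ligase of the same membrane, fell by 0.66 ± 0.12 (adjusted p = 0.00363).

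Of 10 efflux and sterol ester genes, SOAT2, which esterifies cholesterol in hepatocytes, fell by 1.74 ± 0.19 (limma adjusted p = 4.65e-05) and NPC2, which carries cholesterol out of lysosomes, by 0.40 ± 0.10 (adjusted p = 0.026). Of 22 lipogenesis genes, DGAT1 and DGAT2, which complete triglyceride synthesis, fell by 0.81 ± 0.17 and 0.54 ± 0.13 (adjusted p = 0.0085 and 0.0175). ELOVL2, an elongase of polyunsaturated fatty acids, fell by 0.42 ± 0.12 (adjusted p = 0.0412). Of 7 isoprenoid and sterol genes ERG28, a scaffold of sterol demethylation, fell by 0.42 ± 0.12 (adjusted p = 0.0397). ERLIN1 and SOAT2 passed under every omission of an array or pair, and ERG28 under none (-0.44 to -0.39). Without the filter on dim genes none of the 8 passed, and 0% of all genes were called. Without the intensity trend only SOAT2 passed, where 0.134% of all genes rose and 0.243% fell. ERLIN1 had a limma adjusted p of 0.322 without the filter and 0.0533 without the trend. With median scaling ERG28 (-0.37), NPC2 (-0.35) and ELOVL2 (-0.37) were not called, and with probe sets averaged ERLIN1, RNF139 and SOAT2 alone were. RNF139 (-0.64), NPC2 (-0.33), ELOVL2 (-0.33), DGAT1 (-0.93) and DGAT2 (-0.53) did not pass without the 24 h arrays. NPC2 also did not pass without the 0 h arrays (-0.41), nor ELOVL2 (-0.44), DGAT1 (-0.58) and DGAT2 (-0.46) without the 1.5 h arrays.

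At 24 h, 2 of these 49 genes rose and 8 fell, where 7.22% of all genes rose and 7.82% fell. TMEM97, a sterol-responsive membrane protein, fell by 0.66 ± 0.12 (limma adjusted p = 0.00185) and PDSS1, which makes the ubiquinone side chain, by 0.80 ± 0.18 (adjusted p = 0.00693). ERLIN1 fell by 0.54 ± 0.16 (adjusted p = 0.0358) and SOAT2 by 0.98 ± 0.23 (adjusted p = 0.00985). In lipogenesis, where 2 rose and 4 fell of 22, DGAT1 fell by 1.09 ± 0.21 (adjusted p = 0.00281) and ELOVL2 by 0.76 ± 0.15 (adjusted p = 0.00284). ACSL1, an acyl-CoA synthetase, rose by 0.68 ± 0.14 (adjusted p = 0.00496).

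MLXIPL, the carbohydrate-responsive transcription factor ChREBP, had 16.9 in siHNF4A and 11.5 in siControl cells at 24 h, against 38.5 and 33.1 at 0 h. It fell by 1.27 ± 0.32 (limma adjusted p = 0.0153), with the siControl signal at 24 h under the floor. With the floor at the 60th percentile its difference was -0.66 and did not pass (limma adjusted p = 0.12). Each of the 24 h calls named here was lost with at least 1 array left out and without the filter on dim genes, and all but that of MLXIPL without the intensity trend. With probe sets averaged, PDSS1 (-0.29), ERLIN1 (-0.55) and SOAT2 (-0.98) were not called. Without the siHNF4A array at 24 h the values were -0.54 for TMEM97, -0.65 for PDSS1, -0.31 for ERLIN1, -0.61 for SOAT2, -0.62 for ELOVL2, 0.79 for ACSL1 and -1.49 for MLXIPL. DGAT1 was lost without the siControl array at 24 h (-0.91), as were ACSL1 (0.58), ERLIN1 (-0.77) and MLXIPL (-1.05). Without the siHNF4A array at 0 h the calls of PDSS1 (-0.77), ACSL1 (0.59), MLXIPL (-1.18), SOAT2 (-0.77) and ERLIN1 (-0.60) were lost, and without the siControl array at 0 h that of ERLIN1 (-0.49).

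**Figure D5:**
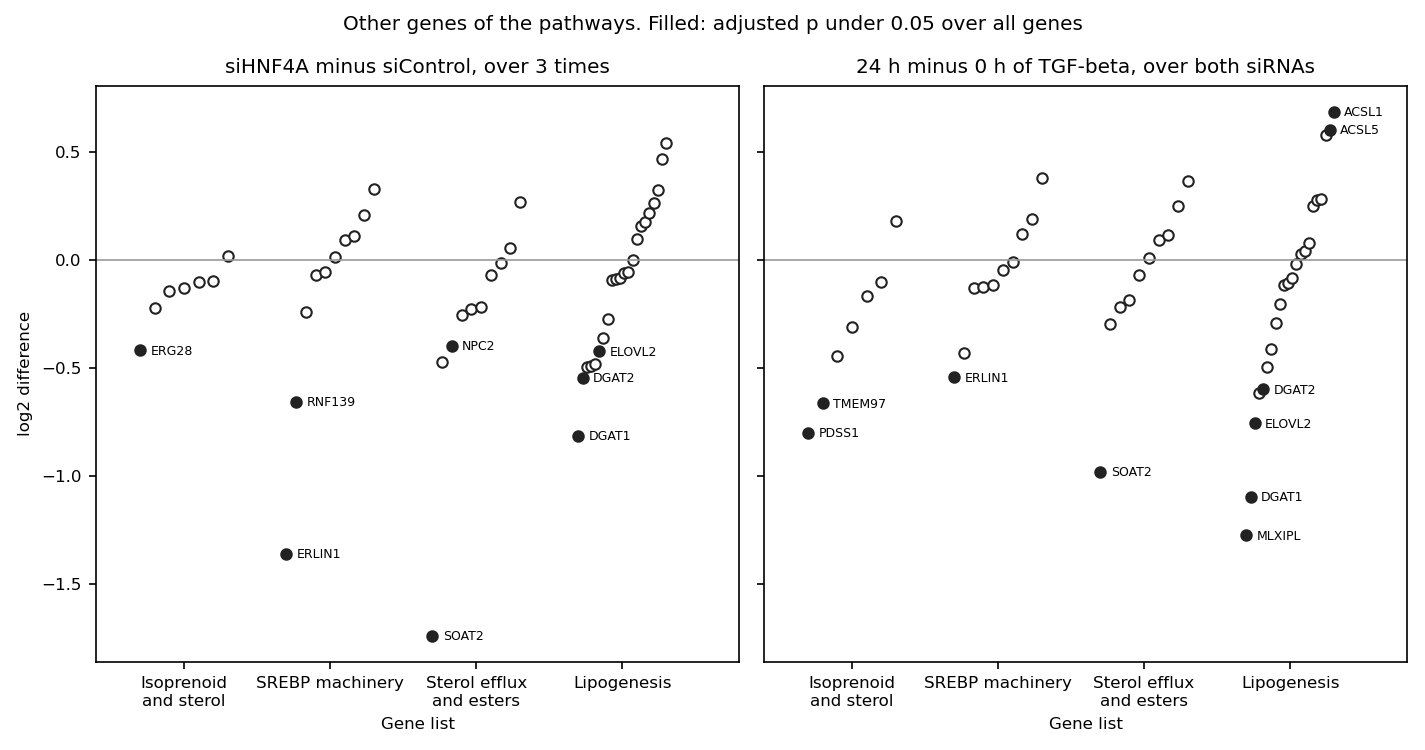
Log2 difference (vertical axis) of 49 other pathway genes in 4 lists (horizontal axis), siHNF4A minus siControl on the left and 24 h minus 0 h on the right, with filled, named points for genes that passed. All 8 filled points on the left are below 0, with SOAT2 at -1.74 and ERLIN1 at -1.36 the lowest, and on the right 2 are above 0 and 8 below.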

How the data were processed

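Intensities on a linear scale were deposited by the authors as MAS5 signals, made with MAS5 5.0 and GCOS per the submitters' processing notes. The 2% trimmed mean is 100 on all 6 arrays. Detection calls were not used here. Of 54675 probe sets, 41097 had 1 gene symbol in the platform table, 1801 several and 11777 none; 41043 matched RefSeq and no symbol changed. The brightest probe set stood for each of 19775 genes. Signals were floored at 12.9 and log2 was taken. The 11921 genes with a mean above the floor entered limma 3.58.1 in R 4.3.3 (eBayes with trend), with siRNA and time as terms (2 residual and 12.6 prior degrees of freedom). A further term tested the siRNA effect at 24 h (1 and 8.56). P-values measure only the spread between these arrays, that of the gene pooled with that of genes of similar signal. Python 3.11.15, numpy 2.4.6, pandas 2.3.3 and matplotlib 3.10.9 did the rest. The scripts were tested on simulated data. The genes of the set and the lists were chosen with earlier results of these data known. Values on every array are given for genes of the set called in a fit and for the 3 highest and 3 lowest of each fit; of other lists at most 4 called genes per list and fit are named. Alternatives changed the floor, a pseudocount, the scaling, the probe set rule, the filter, the trend and the arrays used.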

Additional observations from a re-analysis of the deposited data

Results flagged for a closer look

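FASN and FADS2 went opposite ways from 0 to 1.5 h of TGF-beta in the siRNA arms, by more than 2-fold between arms; the difference was not tested, since each arm has 1 array per time. The FASN response was -0.91 on the log2 scale in siHNF4A cells and 0.55 in siControl cells, a difference of -1.46. Its signals at 1.5 h were 285.3 in siHNF4A cells and 442.4 in siControl cells, against 535.8 and 302.3 at 0 h. The siControl array at 0 h is the one that stood apart in a ribosomal RNA control probe set. The FADS2 response was -1.57 in siHNF4A cells and 0.35 in siControl cells, a difference of -1.91. It uses the same siControl array and 1 low array, with 32.6 at 1.5 h in siHNF4A cells and 102.8 in siControl cells, against 96.6 and 80.8 at 0 h.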

How the results depend on the processing

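The fit sets the siRNAs against each other within each time. No pairing beyond time was possible, because the labels give no replicate numbers to pair by. With quantile or median scaling, another floor (at the 40th or 60th percentile) or a pseudocount, the counts of called genes of the set were those reported, and no called gene changed direction under any alternative run. Without the filter on dim genes, or without the intensity trend in eBayes, 0 rose and 0 fell in the siRNA comparison (4 and 1 reported), and 0 and 0 at 24 h (3 and 2). In the siRNA comparison 0% of all genes were called without the filter, and 0.134% rose and 0.243% fell without the trend. The siRNA differences of the called genes were unchanged in both settings, as at 1.18 for HMGCS1 and -0.53 for EBP. The cause of the lost calls was not tested. When all probe sets of a gene were averaged, 1 rose (ELOVL6) and 0 fell with the siRNA, 2 rose and 0 fell at 24 h, and 2-fold differences on single arrays numbered 2 between siRNAs and 1 from 0 h (4 and 4 reported). Without _x_at and _s_at probe sets, which leaves 18 genes of the set and not SCD, 3 rose and 0 fell with the siRNA, 3 rose and 1 fell at 24 h and 1 was 2-fold from 0 h. With an array or a pair left out, 3 to 3 rose and 0 to 2 fell with the siRNA, 0 to 3 rose and 0 to 5 fell at 24 h, and 0 to 0 rose and 0 to 1 fell at 1.5 h. The further term had no residual degrees of freedom with an array left out and was not run. Over all such settings, single called genes of the set stayed past the threshold in 112 refits and missed it in 57. In the siRNA comparison, leaving out 1 array of a time gave the same difference as leaving out its pair. At 24 h this held for the 1.5 h arrays. These refits are therefore not independent of each other, and their number overstates the separate checks. With 6 arrays and no replicates, a gene that missed the threshold was not shown to be unaffected, and dim genes such as MVD and FADS2 had wider errors than bright ones such as ACLY.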

Other observations

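MVK, the mevalonate kinase, had 2 dimmer probe sets that were lower in siHNF4A cells at each of the 3 times, unlike the brightest one. One gave 51.0, 33.2 and 26.5 at 0, 1.5 and 24 h in siHNF4A cells, against 64.0, 70.6 and 48.5 in siControl cells, a mean log2 difference of -0.76. The other gave 45.2, 32.5 and 38.7 in siHNF4A cells, against 67.8, 60.3 and 40.5 in siControl cells, a mean of -0.51. The brightest gave -0.01. SREBF2 had a probe set that was higher in siHNF4A cells at each time, with 48.3, 51.9 and 77.0 against 32.5, 41.7 and 37.2 in siControl cells, a mean of 0.65, where the brightest gave -0.19. These were noticed after the values were seen, and they were not tested.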
